A study of Homo sapiens with 29 samples.

Results

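The genes described here are 5 genes of the nuclear lamina and the inner nuclear membrane (LMNA, LMNB1, LMNB2, LBR and EMD) and 5 genes of HMG chromatin proteins (HMGA1, HMGA2, HMGB1, HMGB2 and HMGB3). They were chosen by name and taken from the deposited table of gene counts. All 10 were found among its 28266 gene symbols, and all 10 passed the filter on low counts that left 13136 genes for testing. The cells were IMR90 ER:RAS, an established line of human lung fibroblasts in which a retrovirus had placed a fusion of the estrogen receptor and RAS that 4-hydroxytamoxifen (4OHT) switches on. All libraries were labelled day 7. DMSO_siNT cells received the solvent and non-targeting siRNA, 4OHT_siNT cells received 4OHT and non-targeting siRNA, and 4OHT_siSMARCA4 cells received 4OHT and siRNA against SMARCA4, an ATPase of the SWI/SNF chromatin remodelling complex. The fusion was carried by all 3 groups, and the siRNA was introduced a day before induction.

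Each group had 6 libraries, made with siRNAs numbered 2 and 4, and total counts ran from 9657309 to 18039313 per library. Nothing in the labels says that libraries of a group were separate cultures, so p-values measure the spread between these libraries, which may be technical. A library is named by its siRNA number and a set label that ends in V or VM, whose meaning is not stated. The 4OHT_siNT libraries were all of VM sets, while V and VM sets gave 3 libraries each of DMSO_siNT, and 4OHT_siSMARCA4 was made up of 3 from V sets, 2 from VM sets and 1 with no set label. The count column of that last library is named as a VM set, but no sample title of its siRNA has this set. It was therefore not counted among the VM sets. The SMARCA4 level, in CPM (counts scaled to the same library size), was 301 ± 20.9 (SD, n = 6) for 4OHT_siNT and 99.03 ± 27.6 for 4OHT_siSMARCA4, and no library of one group reached the other. The cyclin-dependent kinase inhibitor genes CDKN1A and CDKN2A, which mark senescence arrest, were higher in 4OHT_siNT than in DMSO_siNT by 1.29 ± 0.10 and 1.02 ± 0.18 on the log2 scale (SE, edgeR). In 4OHT_siSMARCA4 both were lower than in 4OHT_siNT, at −0.39 ± 0.10 and −0.64 ± 0.18 (edgeR adjusted p = 0.0193 and 0.0271). Set against DMSO_siNT, CDKN1A was still higher there (0.90 ± 0.10), and CDKN2A was not called (0.39 ± 0.18, adjusted p = 0.0794). Of 10 fibroblast marker genes, 5 were called lower and 1 higher in 4OHT_siNT than in DMSO_siNT, where 28.9% and 23.9% of all genes were. In 4OHT_siSMARCA4, 7 were called lower than in 4OHT_siNT, where 5.65% of all genes were. VIM averaged 6359, 6792 and 6663 CPM in DMSO_siNT, 4OHT_siNT and 4OHT_siSMARCA4, COL1A1 averaged 10692, 7053 and 2642 CPM, and DCN averaged 625, 17.4 and 11.01 CPM. The summed fibroblast level ran from 16194 to 42826 CPM in DMSO_siNT (lowest in 4-2V, next 33638), from 23840 to 37636 in 4OHT_siNT and from 14593 to 23981 in 4OHT_siSMARCA4, and its part in the results was not tested. Of 15 epithelial, endothelial and leukocyte markers, KRT18, KRT8, CD68 and VWF were above 3 CPM on average in some group (KRT18 at 42.8 to 63.2 and CD68 at 52.8 to 59.7 CPM), the rest were at or under 1.32 CPM, and KRT5, SFTPC and NKG7 had no count in any library. The summed epithelial, endothelial and leukocyte levels ran over the 3 groups from 32.99 to 91.8, from 1.30 to 5.78 and from 45.2 to 74.9 CPM. One control library, DMSO_siNT 4-2V, stood apart. ESR1, whose ligand-binding domain is in the fusion, was at 29.5 CPM there against up to 1316 CPM in its group. The RAS gene HRAS was also lowest there, at 436 CPM against up to 2852 CPM. Whether the cells of this library carried the fusion like the others was not tested. The results on the 10 genes and the counts of related genes that rest on this library are given with and without it. Without it, the share of all genes called in the knockdown went from 5.65% to 12.9% lower and from 4.99% to 11.7% higher.

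The nuclear lamina is a meshwork of lamin filaments under the inner nuclear membrane. LMNA encodes lamins A and C, LMNB1 and LMNB2 encode the B-type lamins, and the membrane proteins LBR and emerin (EMD) tie the meshwork and the chromatin to the envelope. The HMG proteins are abundant architectural chromatin proteins: HMGA proteins bind the minor groove of AT-rich DNA through AT-hooks, and HMGB proteins bend DNA through HMG boxes. Loss of lamin B1 and of HMGB2 is a widely used mark of senescent cells, HMGB1 leaves the nucleus in senescence and can act outside the cell as an alarmin, and HMGA proteins accumulate in the heterochromatin foci of senescent fibroblasts.

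The sequences that precede the start sites are shown because several of these genes moved together. RefSeq promoter windows (GRCh38.p14) were found for 8 of the 10 genes, not for HMGA2 and HMGB2. Of these, 6 genes had a window that ended at the start of the GENCODE canonical transcript, and the windows of LMNA and LBR belonged to other start sites. Searched on both strands in the 250 bases before the start were CCAAT, the cell cycle homology region TTTGAA, and the E2F letters TTTCCCGC, TTTCGCGC, TTTGGCGC and TTTGCCGC. Below are 3 genes that were lower in senescent cells (LMNB1, HMGB1 and HMGB3) and LMNB2, which was not called lower with all libraries, each 5′ to 3′ along its gene, with matches in capitals.
LMNB1, chr5:126776886-126777135, plus strand: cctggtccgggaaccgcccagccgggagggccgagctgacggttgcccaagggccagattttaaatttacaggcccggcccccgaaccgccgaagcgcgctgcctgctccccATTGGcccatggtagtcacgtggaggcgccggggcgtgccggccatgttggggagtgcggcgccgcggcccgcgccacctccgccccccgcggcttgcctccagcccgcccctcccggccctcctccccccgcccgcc
HMGB1, chr13:30465937-30466186, minus strand: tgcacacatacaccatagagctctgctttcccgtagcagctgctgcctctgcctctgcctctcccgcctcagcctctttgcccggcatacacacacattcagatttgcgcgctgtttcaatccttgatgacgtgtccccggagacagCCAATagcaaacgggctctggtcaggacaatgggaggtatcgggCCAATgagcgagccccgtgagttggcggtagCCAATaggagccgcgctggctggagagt
HMGB3, chrX:150983085-150983334, plus strand: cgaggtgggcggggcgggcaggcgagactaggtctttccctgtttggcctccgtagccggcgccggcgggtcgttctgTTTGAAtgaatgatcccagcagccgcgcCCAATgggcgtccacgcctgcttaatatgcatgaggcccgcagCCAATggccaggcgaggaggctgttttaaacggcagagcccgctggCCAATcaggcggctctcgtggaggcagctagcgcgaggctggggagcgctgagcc
LMNB2, chr19:2456960-2457209, minus strand: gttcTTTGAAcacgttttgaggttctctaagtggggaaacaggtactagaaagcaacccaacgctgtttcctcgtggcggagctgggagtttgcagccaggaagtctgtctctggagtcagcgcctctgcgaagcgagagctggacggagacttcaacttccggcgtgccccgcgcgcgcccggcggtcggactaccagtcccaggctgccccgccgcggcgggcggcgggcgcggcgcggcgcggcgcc
LMNB1 held 1 CCAAT, read on the reverse strand from base 138 to base 134 before the start. HMGB1 held 3 and HMGB3 held 3, all on the forward strand. TTTGAA stood in HMGB3 (bases 172 to 167 before the start) and in LMNB2 (bases 246 to 241). Of the 6 canonical windows, 4 held CCAAT, 2 held TTTGAA and none held the E2F letters. Those with CCAAT were LMNB1, HMGB1, HMGB3 and EMD, and EMD (2 matches) was not called lower with all libraries. LMNB2 and HMGA1, not called either, held no CCAAT in theirs. Nearest to the canonical starts of LBR and LMNA, which were both lower, the windows held no CCAAT. They belonged to starts at −783 (LBR) and −7995 bases (LMNA) from the canonical ones. A further LMNA window, which ended at the start of the gene, held 1 CCAAT and the E2F letters TTTCCCGC (bases 23 to 16 before that start). The remaining LMNA window held none of the letters searched. Over all 35116 promoter windows of the same length, 32.01% held CCAAT, 13.3% held TTTGAA and 2.79% held the E2F letters. The matches are a description of these letters and no site was measured.

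To compare levels between genes, mean CPM was divided by the length of the canonical transcript. In DMSO_siNT, HMGA1 stood highest at 630 ± 46.7 CPM per kb (SD, n = 6), followed by LMNA at 432 ± 76.3 and HMGA2 at 156 ± 48.9. HMGB2 (53.1 ± 30.2) and EMD (51.2 ± 12.3) did not differ beyond their spread, nor did LMNB2 (27.2 ± 10.4) and HMGB1 (24.5 ± 13.0). HMGB3, LBR and LMNB1 were lowest, at 10.4 ± 3.83, 9.69 ± 1.13 and 9.13 ± 3.67 CPM per kb, within each other's spread. In 4OHT_siNT the order at the top was HMGA1 (670 ± 96.6), HMGA2 (223 ± 6.80) and LMNA (201 ± 11.2), and HMGB2 (3.29 ± 0.57) and LMNB1 (0.62 ± 0.20) were the lowest. LBR, HMGB3 and HMGB2 did not differ beyond their spread in 4OHT_siNT, at 4.04 ± 0.69, 3.93 ± 0.55 and 3.29 ± 0.57 CPM per kb. In 4OHT_siSMARCA4 the same genes stood at both ends, from HMGA1 at 500.0 ± 71.7 to HMGB2 at 2.90 ± 0.59 and LMNB1 at 0.82 ± 0.21 CPM per kb.

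**Figure D1:**
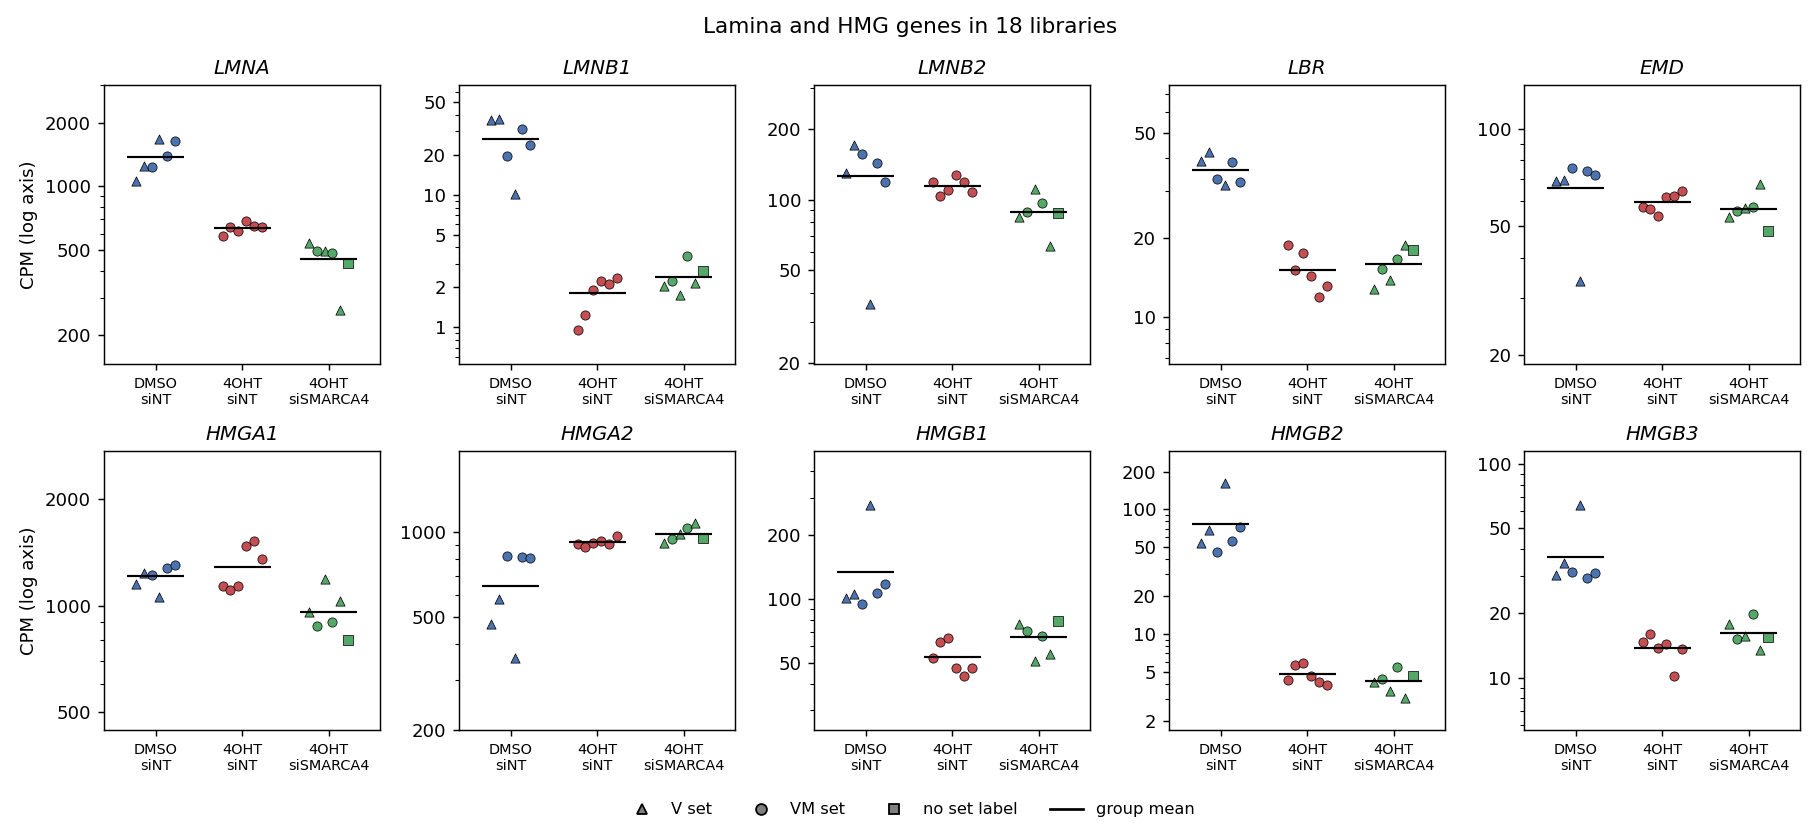
CPM (log axis) of each gene in the 18 libraries, 1 point per library, with triangles for V sets, circles for VM sets, a square for the library with no set label and a line at the group mean. LMNB1 and HMGB2 fall from 26.4 and 76.5 to 1.80 and 4.75 CPM on average with 4OHT, and the lowest DMSO_siNT triangle for LMNB2 and EMD is library 4-2V.

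The comparison of 4OHT_siNT with DMSO_siNT asked how these genes respond to RAS-induced senescence. LMNB1 and HMGB2 fell most, 14.7-fold and 16.05-fold. LMNA, LBR, HMGB1 and HMGB3 fell by between 2.15-fold and 2.65-fold, HMGA2 rose 1.43-fold, and LMNB2, EMD and HMGA1 did not pass the test. So 6 of the 10 genes were called lower, where 28.9% of all 13136 genes were, and 1 was called higher, where 23.9% were (edgeR quasi-likelihood test, Benjamini-Hochberg adjusted p under 0.05 over all genes). In 7 of the 10 the libraries of the groups did not overlap, against 33.8% of all genes. The median log2 fold change was −1.18 over the 10 genes and −0.05 over all genes tested. In a bulk measurement, fewer cells of a type and less RNA per cell cannot be told apart.

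Among the lamins, LMNB1 (chromosome 5, 126776623 to 126837020, plus strand, GENCODE version 44 on GRCh38) ran from 10.04 CPM through a median of 27.4 to 37.4 CPM in DMSO_siNT. In 4OHT_siNT it ran from 0.95 through 2.02 to 2.34 CPM, which was 13 to 31 counts per library. The groups were far apart, and the highest 4OHT_siNT library was still below the lowest control, library 4-2V. This was a log2 fold change of −3.87 ± 0.30 (SE; edgeR adjusted p = 2.21e-09), or of −4.03 without 4-2V. LMNA (chromosome 1, 156082573 to 156140081, plus strand), whose count covers lamins A and C together, ran from 1060 through 1318 to 1670 CPM in DMSO_siNT and from 583 through 645 to 686 CPM in 4OHT_siNT. These groups did not overlap either, and LMNA fell by 1.11 ± 0.15 on the log2 scale (edgeR adjusted p = 4.97e-06). LMNB2 (chromosome 19, 2427638 to 2456959, minus strand) ran from 35.7 through 137 to 172 CPM in DMSO_siNT and from 103 through 115 to 128 CPM in 4OHT_siNT. The groups overlapped, and the lowest control value was again that of 4-2V. Its log2 difference was −0.14 ± 0.24 (edgeR adjusted p = 0.638) with all libraries and −0.32 without 4-2V, which passed the test (adjusted p = 0.0185). Within VM sets the LMNB2 difference was −0.28 (adjusted p = 0.0222).

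Of the membrane proteins, LBR (chromosome 1, 225401502 to 225428925, minus strand), which also has sterol reductase activity, ran from 31.8 through 36.03 to 42.2 CPM in DMSO_siNT. In 4OHT_siNT it ran from 11.9 through 14.7 to 18.8 CPM, below every control. LBR fell by 1.26 ± 0.13 on the log2 scale (edgeR adjusted p = 1.02e-07). EMD (chromosome X, 154379273 to 154381574, plus strand) ran from 33.8 through 70.7 to 75.8 CPM in DMSO_siNT and from 53.7 through 59.4 to 64.4 CPM in 4OHT_siNT. The 4OHT_siNT libraries lay above library 4-2V and below the other 5 controls. The log2 difference of EMD was −0.15 ± 0.14 (edgeR adjusted p = 0.398), and it was −0.28 without 4-2V (adjusted p = 0.00626) and −0.32 within VM sets (adjusted p = 0.00443). Without 4-2V, 8 of the 10 genes were thus called lower, where 30.3% of all genes were.

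The 3 HMGB genes all fell. HMGB2 (chromosome 4, 173331376 to 173334432, minus strand) ran from 45.3 through 62.2 to 163 CPM in DMSO_siNT and from 3.91 through 4.45 to 5.84 CPM in 4OHT_siNT. The lowest control was well above every 4OHT_siNT library. It fell by 4.00 ± 0.28 on the log2 scale (edgeR adjusted p = 4.78e-10), with a log2 fold change of −3.63 without 4-2V. HMGB1 (chromosome 13, 30456704 to 30617597, minus strand) ran from 94.3 through 106 to 278 CPM in DMSO_siNT and from 43.4 through 50.1 to 65.5 CPM in 4OHT_siNT. HMGB3 (chromosome X, 150980509 to 150990771, plus strand) ran from 29.3 through 30.9 to 63.8 CPM and from 10.2 through 14.03 to 16.05 CPM. For both genes the highest control was 4-2V and the groups did not overlap. HMGB1 fell by 1.33 ± 0.23 and HMGB3 fell by 1.41 ± 0.18 on the log2 scale (edgeR adjusted p = 6.85e-05 and 1.79e-06). Without 4-2V the log2 fold changes were −0.98 for HMGB1 and −1.17 for HMGB3, both still called.

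The HMGA genes behaved otherwise. HMGA2 (chromosome 12, 65824460 to 65966291, plus strand) ran from 359 through 692 to 824 CPM in DMSO_siNT and from 885 through 910.1 to 966 CPM in 4OHT_siNT. The groups did not overlap, and the rise of 0.52 ± 0.16 on the log2 scale was called (edgeR adjusted p = 0.0118). Within DMSO_siNT, however, the 3 V libraries were at 359 to 579 CPM and the 3 VM libraries at 806 to 824 CPM. Since all 4OHT_siNT libraries were of VM sets, the rise was compared within those sets, where it was 0.17 and was not called (adjusted p = 0.0699). The 4OHT_siNT libraries still lay above the VM controls. Without 4-2V the rise was 0.40 (adjusted p = 0.00691). HMGA1 (chromosome 6, 34236873 to 34246231, plus strand) ran from 1060 through 1232 to 1306 CPM in DMSO_siNT and from 1106 through 1243 to 1518 CPM in 4OHT_siNT. The groups overlapped, and the log2 difference of 0.09 ± 0.12 did not pass the test (edgeR adjusted p = 0.540).

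**Figure D2:**
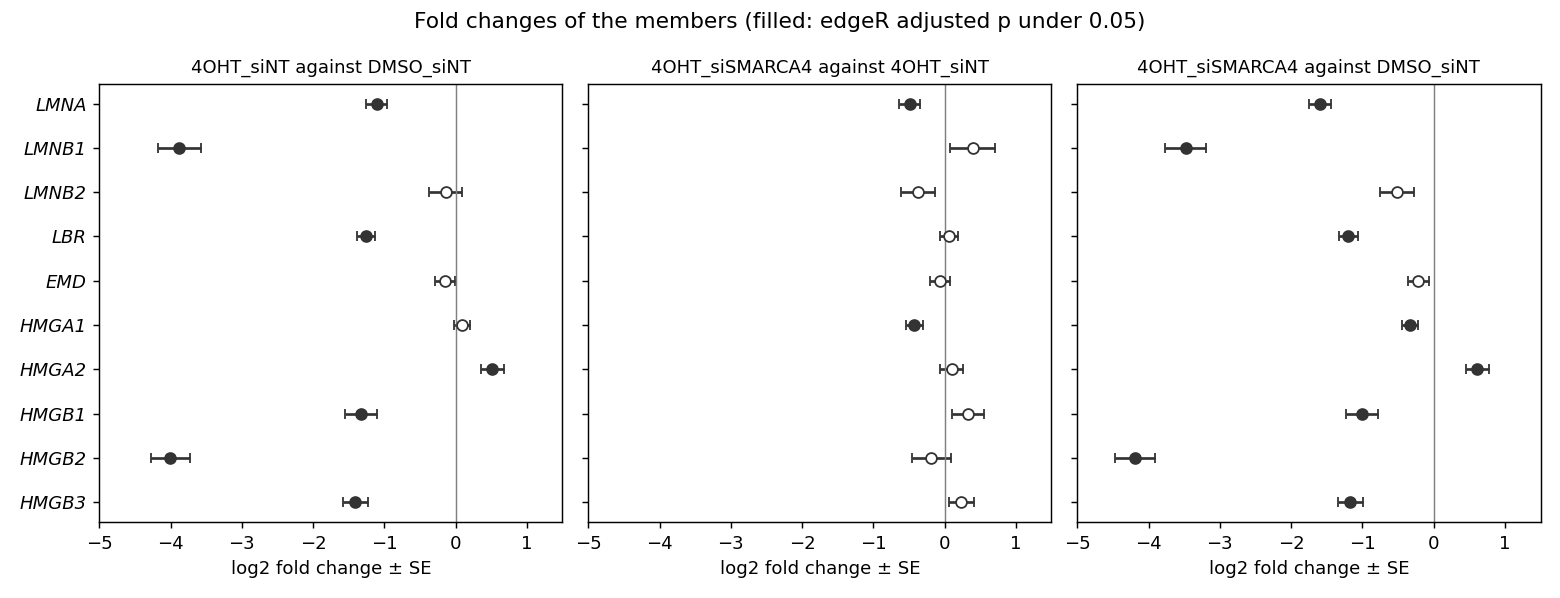
Log2 fold change ± SE (edgeR) of each gene in the 3 comparisons, with filled points for genes called at an adjusted p under 0.05. The falls of LMNB1 and HMGB2 with 4OHT are −3.87 and −4.00, and with SMARCA4 siRNA only LMNA (−0.49) and HMGA1 (−0.42) are called.

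The comparison of 4OHT_siSMARCA4 with 4OHT_siNT asked whether SMARCA4 loss alters these genes in senescent cells. LMNA and HMGA1 were lower, 1.41-fold and 1.34-fold, and the other 8 genes did not pass the test. This was 2 of 10 lower, where 5.65% of all genes were called lower, and 0 of 10 higher, where 4.99% were called higher (edgeR, and 0 higher also at an unadjusted p under 0.05 and with DESeq2). The groups did not overlap for 1 gene, LMNA, against 11.4% of all genes. The median log2 fold change of the 10 genes was 0.0006, and that of all genes was 0.01.

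LMNA ran from 262 through 492 to 541 CPM in 4OHT_siSMARCA4, all under the 583 CPM of the lowest 4OHT_siNT library. The lowest value was that of library 4-3V, well under the next at 436 CPM. LMNA fell by 0.49 ± 0.15 on the log2 scale (edgeR adjusted p = 0.0412). The call rested on many libraries: it was lost when any of 12 of the 18 was left out, at adjusted p of 0.0508 to 0.0896 and log2 fold changes of −0.52 to −0.38. It was kept without DMSO_siNT 2-1V, 2-2VM, 4-2V or 4-3VM and without 4OHT_siSMARCA4 2-3V or 4-2V. Within VM sets the LMNA difference was −0.39 (adjusted p = 0.0293).

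HMGA1 ran from 802 through 929 to 1192 CPM in 4OHT_siSMARCA4, overlapping the lower part of 4OHT_siNT. In 4OHT_siNT it was at 1106 to 1135 CPM with siNT 2 and at 1350 to 1518 CPM with siNT 4. The log2 difference was −0.42 ± 0.12 (edgeR adjusted p = 0.0243), −0.23 against siNT 2 alone (adjusted p = 0.168) and −0.55 within VM sets (adjusted p = 0.0118). Leaving out any of 5 libraries ended the call, at adjusted p of 0.05498 to 0.0631: 4OHT_siNT 4-1VM and 4-2VM, and 4OHT_siSMARCA4 2-3VM, 4-2VM and the library with no set label.

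LMNB1 and HMGB2 were low in both groups of 4OHT cells. LMNB1 ran from 1.74 through 2.19 to 3.46 CPM in 4OHT_siSMARCA4, overlapping 4OHT_siNT, with a log2 difference of 0.39 ± 0.31 (edgeR adjusted p = 0.476). HMGB2 ran from 3.05 through 4.24 to 5.45 CPM, with a log2 difference of −0.19 ± 0.27 (adjusted p = 0.727). The remaining differences were −0.37 ± 0.24 for LMNB2, 0.07 ± 0.13 for LBR, −0.07 ± 0.14 for EMD, 0.10 ± 0.16 for HMGA2, 0.32 ± 0.22 for HMGB1 and 0.24 ± 0.18 for HMGB3. LMNB2 passed the test without DMSO_siNT 4-2V (log2 fold change −0.38, edgeR adjusted p = 0.0151) and with the 2 groups fitted alone (−0.37, adjusted p = 0.0172), which also leaves that library out, where 12.9% and 13.6% of all genes were called lower. It also passed in VM sets with the library that has no set label (−0.35, adjusted p = 0.0124), where 16.7% were, and not in VM sets alone (adjusted p = 0.0596).

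Set against DMSO_siNT, 4OHT_siSMARCA4 cells had 7 of the 10 genes lower, where 27.3% of all genes were called lower, and HMGA2 higher, where 23.3% were. The groups did not overlap for 7 genes, against 29.6% of all genes. This comparison shares its controls with the first and its knockdown libraries with the second. LMNB1 was at −3.48 ± 0.29, HMGB2 at −4.19 ± 0.28 and LMNA at −1.60 ± 0.15 on the log2 scale (edgeR adjusted p = 6.19e-09, 2.69e-10 and 4.21e-08). HMGB1 and HMGB3 were lower by smaller amounts, at −1.005 ± 0.23 and −1.17 ± 0.18, and LBR was at −1.19 ± 0.13. HMGA1 was at −0.33 ± 0.12 (adjusted p = 0.0220) and lost its call without 4OHT_siSMARCA4 2-3VM or the library with no set label (adjusted p = 0.05203 and 0.0599). HMGA2 was at 0.61 ± 0.16 (adjusted p = 0.00367) and at 0.26 within VM sets (adjusted p = 0.0411). LMNB2 and EMD were not called with all libraries (adjusted p = 0.0806 and 0.225) and were called lower without DMSO_siNT 4-2V, at −0.70 and −0.35.

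Counts of 2 genes within 1 library can be set against each other without any scaling between libraries, and 2 such ratios were compared in 2 contrasts each. LMNB1 counts as a percent of LMNA counts ran from 0.60 through 1.92 to 3.44 in DMSO_siNT, from 0.17 through 0.32 to 0.37 in 4OHT_siNT and from 0.35 through 0.54 to 0.83 in 4OHT_siSMARCA4. The ratio was lower in all senescent siNT libraries than in any control, by −2.70 on the log2 scale of group means. In the knockdown it was higher by 0.96 than in 4OHT_siNT, with an overlap of the lowest knockdown and the highest 4OHT_siNT library. HMGB2 counts as a percent of HMGB1 counts ran from 48.1 through 56.2 to 64.6 in DMSO_siNT, where library 4-2V at 58.7 did not stand out. They ran from 8.20 through 9.02 to 9.76 in 4OHT_siNT and from 5.43 through 6.05 to 8.21 in 4OHT_siSMARCA4, where the highest library just overlapped the lowest of 4OHT_siNT. The log2 differences were −2.65 with 4OHT and −0.51 with the knockdown. In exact two-sided permutation tests of 6 against 6 libraries, both differences with 4OHT had p = 0.00216, the smallest this design allows, and both with the knockdown had p = 0.00433, and all 4 Benjamini-Hochberg adjusted values were 0.00433.

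**Figure D3:**
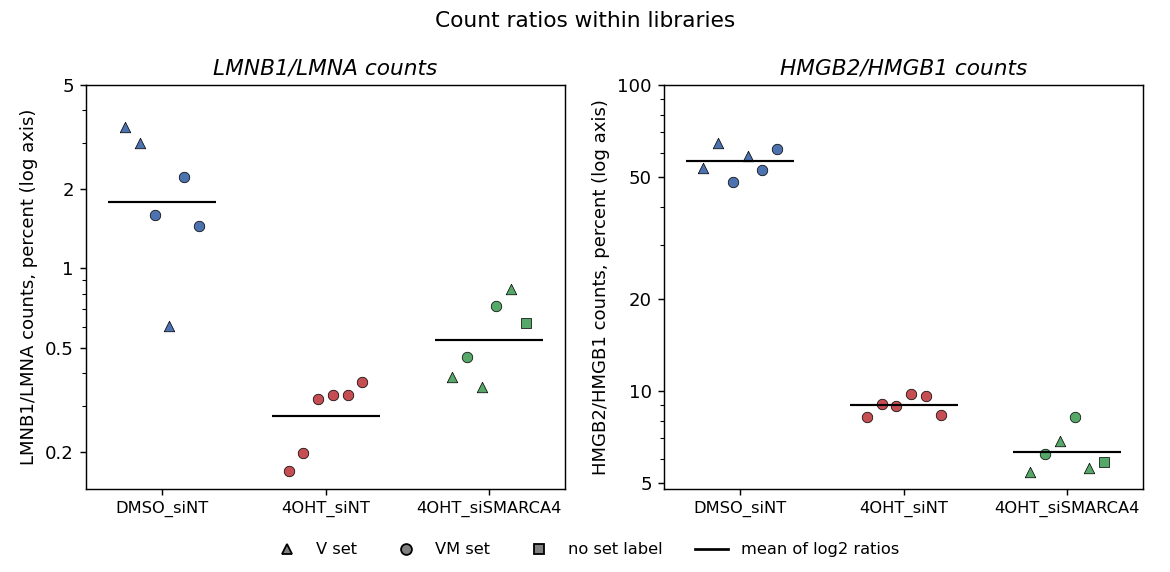
LMNB1 counts as a percent of LMNA counts (left) and HMGB2 counts as a percent of HMGB1 counts (right) in each library, on log axes, with a line at the mean of the log2 ratios. The HMGB2 ratio drops from 48.1 to 64.6 percent in DMSO_siNT to 8.20 to 9.76 percent in 4OHT_siNT, and the LMNB1 ratio is lowest in 4OHT_siNT.

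The siRNAs of a group were compared in a fit with treatment and siRNA number (13659 genes tested). None of the 10 genes was called between siSMARCA4_2 and siSMARCA4_4 (0 also at an unadjusted p under 0.05 and with DESeq2), where 1 gene of all was. Log2 differences of the members ran from −0.23 for HMGA1 to 0.40 for HMGB1. Between siNT 2 and siNT 4 in 4OHT cells none was called either (2 at an unadjusted p under 0.05, LBR and HMGA1, and 0 with DESeq2), where 10 genes of all were. Between siNT 2 and siNT 4 in DMSO cells none was called (smallest edgeR adjusted p = 0.0869), where 7 genes of all were. There, 3 members (LMNA, HMGB1 and HMGB2) were at an unadjusted p under 0.05, as were 3872 of all 13659 genes. Without 4-2V, which is a siNT 4 library, 1 member was at an unadjusted p under 0.05.

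Within this fit, the 6 genes LMNA, LMNB1, LBR, HMGB1, HMGB2 and HMGB3 were called lower in 4OHT cells with each siNT. Of all 13659 genes tested, 5084 with siNT 2 and 7117 with siNT 4 were called in either direction. HMGB1 was at −0.72 ± 0.25 with siNT 2 and at −1.84 ± 0.26 with siNT 4 on the log2 scale, HMGB2 at −3.39 ± 0.33 and −4.50 ± 0.35, and LMNB1 at −4.49 ± 0.41 and −3.28 ± 0.39. The difference between the siNTs was at an unadjusted p of 0.00610, 0.0251 and 0.0444 for these 3 genes, and was called for none of the 10 (smallest edgeR adjusted p = 0.114). Without 4-2V the siNT 4 values of HMGB1, HMGB2 and LMNB1 were −1.28, −3.92 and −3.61, and 1 difference (HMGB1) was at an unadjusted p under 0.05 (adjusted p = 0.0694). HMGA2 was at 0.54 with siNT 2 and at 0.51 with siNT 4 in this fit and was called with neither (adjusted p = 0.0930 and 0.0902). With 4-2V left out of it, HMGA2 was called higher (adjusted p = 0.00318), and LMNB2 and EMD lower, with siNT 2. In that fit HMGA2 with siNT 4 was at 0.21 and was not called (edgeR adjusted p = 0.274), nor were LMNB2 and EMD. The siNT 2 controls include DMSO_siNT 2-1V and 2-2V, at 471 and 579 CPM of HMGA2. The siNT 4 controls that remain, 4-2VM and 4-3VM, were at 813 and 806 CPM, so siRNA number and set letters cannot be told apart here. With siNT 2 libraries as the only controls in the fit of the 3 groups, HMGA2 was likewise called higher (0.53, adjusted p = 0.0104) and LMNB2 and EMD lower (−0.46 and −0.35, adjusted p = 0.0287 and 0.0161), and with siNT 4 as the only controls none of these 3 was. With each SMARCA4 siRNA set against the siNT of its number, no member was called in edgeR (1 and 2 members at an unadjusted p under 0.05). Of all genes, 1048 were called with number 2 and 370 with number 4.

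Genes with related roles were counted in the same fits, from lists chosen with earlier results of these data known. Of 22 tested lamina partners and lamin processing genes, 7 were lower and 6 were higher in 4OHT_siNT than in DMSO_siNT (median −0.03), against 28.9% and 23.9% of all genes (median −0.05), so these counts were near the share over all genes. Those that changed most were all lower: NRM (nurim, an inner nuclear membrane protein) at −1.60 ± 0.18, SYNE3 (a nesprin) at −1.43 ± 0.15, TMPO (LAP2, which binds lamins) at −1.33 ± 0.13 and SYNE2 (another nesprin) at −0.88 ± 0.32 on the log2 scale. TMPO ran from 57.2 through 69.8 to 89.4 CPM in DMSO_siNT and from 25.1 through 28.8 to 30.4 CPM in 4OHT_siNT, without overlap. In the knockdown SYNE3 was called lower, at −0.50 ± 0.15 (edgeR adjusted p = 0.0405), and 0 were higher (1 at an unadjusted p under 0.05, and 1 with DESeq2), against 5.65% and 4.99% of all genes. Without 4-2V, TOR1AIP2 and TMEM43 were also called, higher by 0.33 and 0.23, where 11.7% of all genes were called higher.

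Of 11 other HMG box and HMGN genes, 6 were lower and 2 were higher with 4OHT (median −0.28), where 28.9% and 23.9% of all genes were. HMGN proteins bind nucleosomes, and HMGN2, HMGN3 and HMGN5 were at −1.38 ± 0.26, −1.31 ± 0.27 and −3.19 ± 0.81 on the log2 scale. HMGN5 was at 90.8 CPM in DMSO_siNT 4-2V and at 2.28 to 8.23 CPM in the other controls. Without 4-2V the log2 fold changes were −1.57, −0.88 and −1.16, and all 3 were still called. HMGXB3 was higher, at 1.24 ± 0.16. In the knockdown HMGN4 was higher, at 0.39 ± 0.11 (edgeR adjusted p = 0.0288), and 0 were lower (2 at an unadjusted p under 0.05, and 1 with DESeq2). Without 4-2V, SSRP1 was called lower, at −0.25, where 12.9% of all genes were.

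Of 21 genes of heterochromatin and senescence-associated heterochromatin foci, 11 were lower and 5 were higher with 4OHT (median −0.25), where 28.9% and 23.9% of all genes were. UHRF1, which recruits the maintenance DNA methyltransferase, was at −1.44 ± 0.19, CBX1 (HP1 beta) at −0.64 ± 0.09 and MACROH2A2 (a macroH2A histone) at −0.61 ± 0.13 on the log2 scale. ATRX, a chromatin remodeller, was at −1.12 ± 0.34, with 699 CPM in DMSO_siNT 4-2V against 116 to 170 CPM in the other controls, and at −0.42 without that library. In the knockdown 0 of the 21 were called in either direction (3 higher and 2 lower at an unadjusted p under 0.05, and 1 each with DESeq2), where 4.99% of all genes were called higher and 5.65% lower. Without 4-2V, CBX3 (HP1 gamma) and MORC3 were called higher, at 0.40 and 0.26, and HIRA (a histone chaperone), EHMT1 and DNMT1 lower, at −0.40, −0.27 and −0.27, where 11.7% of all genes were higher and 12.9% lower. In VM sets alone CBX3 was called higher (0.50) and HIRA, CBX5 and DNMT1 lower (−0.45, −0.40 and −0.40), where 8.76% and 12.2% of all genes were. These genes were named after their values were seen.

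Of 24 proliferation genes, all 24 were lower with 4OHT (median −3.87), where 28.9% of all genes were. Their summed level ran from 859 to 1264 CPM in DMSO_siNT and from 168 to 231 CPM in 4OHT_siNT. MKI67 was at −5.74 ± 0.36, CDK1 at −5.38 ± 0.30 and BIRC5 at −5.10 ± 0.32 on the log2 scale. NDC80, a kinetochore gene, had 0 to 4 counts in each 4OHT_siNT library and 152 to 240 in each control. The proliferation genes thus moved with LMNB1 and HMGB2, and their part in those results was not tested. In the knockdown 6 of the 24 were higher (median 0.34), where 4.99% of all genes were, and 0 were lower (3 at an unadjusted p under 0.05, and 1 with DESeq2), where 5.65% were. Among the 6 were CDK1 at 1.44 ± 0.33, which ran from 5 to 13 counts in 4OHT_siNT and from 10 to 31 counts in 4OHT_siSMARCA4, and RRM2 at 1.07 ± 0.23. The count of higher genes ran from 3 to 7 when 1 library was left out and from 0 to 10 over the other alternatives. It was 3 without 4OHT_siNT 2-2VM or 4-2VM or without 4OHT_siSMARCA4 2-3VM, 4-2VM or the library with no set label, and 0 with siNT 4 alone or siSMARCA4_4 alone and with the set label as block. Without DMSO_siNT 4-2V 7 were higher and 3 (MCM3, MCM5 and AURKA) were lower, at −0.50, −0.53 and −0.33, where 11.7% and 12.9% of all genes were. The summed level in 4OHT_siSMARCA4 was 172 to 220 CPM.

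**Figure D4:**
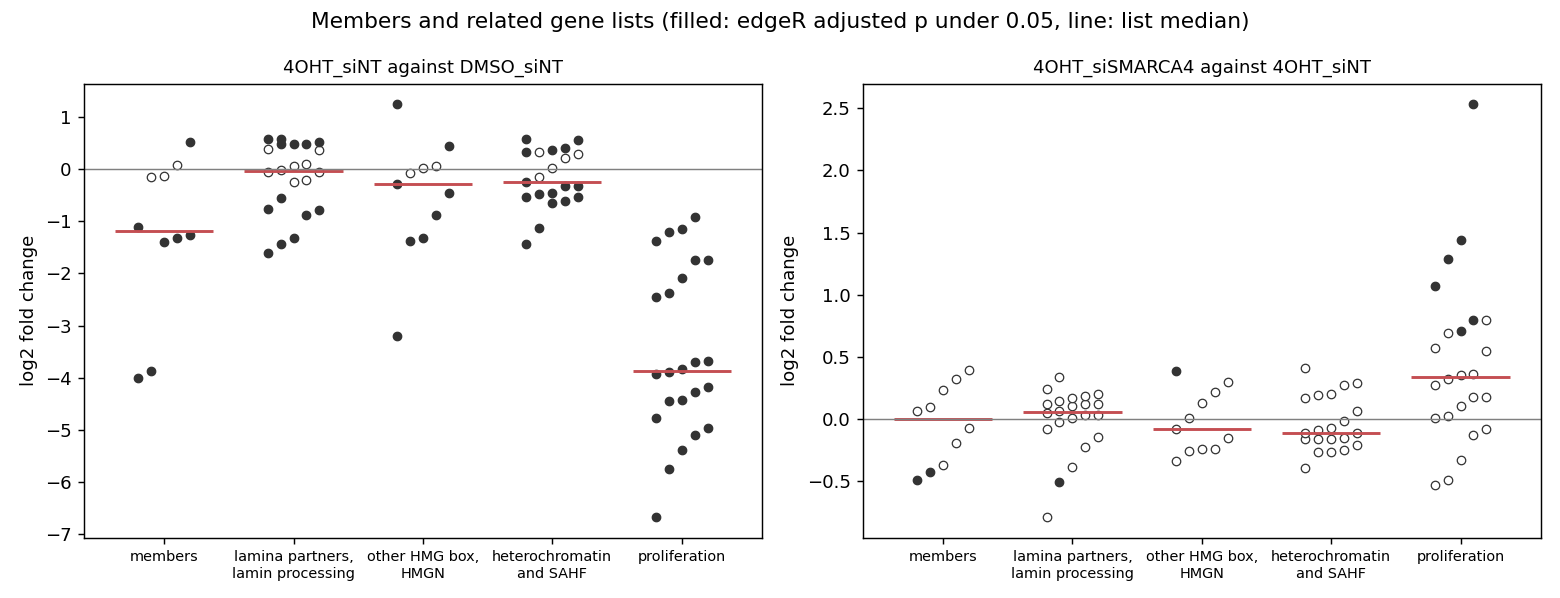
Log2 fold changes of the 10 genes and of the genes of 4 related lists in the comparison with 4OHT (left) and with the knockdown (right, on a narrower axis), filled where called by edgeR, with a line at each median. All 24 proliferation genes are below 0 with 4OHT and their median is −3.87, next to −1.18 for the 10 genes.

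The genes whose log2 CPM followed a member most closely over the 18 libraries were listed by Pearson's r, a description of libraries that share their groups. For LMNB1 these were CDC20 (r = 0.987), BUB1B, CDC25C, PLK1 and TRIP13 (r = 0.981). For HMGB2 they were SMC4 (r = 0.990), CAMK2D, MAB21L2, HTR2B and KIF22 (r = 0.986). For LMNA they were PACSIN3 (r = 0.982), CAVIN1, PRKAR1B, VTI1B and IER5 (r = 0.957), and for HMGA2 they were FAM214B (r = 0.949), SLC52A2, ATP6AP1, CLCF1 and SERINC3 (r = 0.933). On deviations from the group means, the closest genes were AGAP2-AS1 for LMNB1 (r = 0.916), ANKRD12 for HMGB2 (r = 0.959), GIPC1 for LMNA (r = 0.970) and PNP for HMGA2 (r = 0.952). CDC20 was the only gene in both lists of LMNB1, and no gene was in both lists of HMGB2, LMNA or HMGA2. Processed pseudogenes can share reads with HMG genes. The rows found for them, HMGB3P1 and HMGA1P7, held at most 1 count in any library.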

How the data were processed

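RNA sequencing of 18 libraries was analysed. Per the labels and the study's methods, directional polyA libraries were sequenced as single-end reads, and the submitters' processing notes name STAR 2.7.8a, DESeq2 1.36.0 and hg38. The annotation, the counting program and its use of strand are not given in the sources used here. The authors deposited raw counts without normalization, 1 column per library and lane (36 columns), and all rows named a gene. The 2 lanes of a library were summed. Of 29 samples in the labels, 17 matched a library. One more library, whose columns are named as a VM set that no sample title of its siRNA had, was used as a 4OHT_siSMARCA4 library with no set label. The other samples were not analysed here.

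Genes were filtered with filterByExpr (minimum count 10), scaled by TMM and tested in R 4.3.3 by edgeR 4.0.16 (quasi-likelihood F test). The fit held all 3 groups and no covariate, as the study states none. A gene was called at a Benjamini-Hochberg adjusted p under 0.05. SEs were derived from the F statistic, and levels are CPM on the TMM scale. Within-library count ratios used a pseudocount of 0.5 and exact permutation tests. Lanes of a library differed by a chi-square per degree of freedom of 1.19 to 1.27 and libraries of a group by 2.33 to 315, so none was treated as a duplicate. The scripts were tested on simulated data. DESeq2 1.42.0, other scalings and filters, subsets and leaving out each library were tried.

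The members and gene lists were chosen with earlier results of these data known. The text names all members, up to 4 called genes with the largest change in each list, the 5 genes most alike to LMNB1, HMGB2, HMGA2 and LMNA, markers and checks. ESR1, HRAS, and genes of the lists called in the knockdown only without 1 library or in VM sets alone, were named after their values were seen.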

Additional observations from a re-analysis of the deposited data

Results flagged for a closer look

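In 36 sets of 6 libraries (10 genes and 2 count ratios in 3 groups, on the log2 scale), 7 had a highest or lowest library whose gap to the next, as a share of the group's range, exceeded the 95% limit of Dixon's test. Chance flags about 1 in 20 such sets. Of the 7, 5 were DMSO_siNT 4-2V: lowest for LMNB2 (gap of 0.767 of the range) and EMD (0.881), and highest for HMGB1 (0.798), HMGB2 (0.634) and HMGB3 (0.791). The LMNA level of 4OHT_siSMARCA4 4-3V was the lowest of its group by 0.703 of the range, and the HMGB3 level of 4OHT_siNT 4-2VM was the lowest of its group by 0.643. No cause was tested.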

How the results depend on the processing

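The calls of LMNA, LMNB1, LBR, HMGB1, HMGB2 and HMGB3 with 4OHT kept their direction and their side of the threshold in all alternatives run. The weaker calls did not. With 4OHT, the count of members called higher went from 1 (HMGA2) to 0 in VM sets alone, in VM sets with the library that has no set label (chosen after seeing the data), with siNT 4 alone, and at an adjusted p under 0.01 or with a 2-fold minimum. Against DMSO_siNT the knockdown count of 1 higher went to 0 with the 2-fold minimum. In the knockdown, the count of members called lower went from 2 to 0 without the filter on low counts, with siNT 2 alone, with siSMARCA4_4 alone, at an adjusted p under 0.01 and with the 2-fold minimum, and to 1 with siNT 4 alone and with siSMARCA4_2 alone. It went to 3, with LMNB2 (adjusted p = 0.0124), in VM sets with the library that has no set label, and to 3 with the 2 groups fitted alone. The count called higher went from 0 to 1 (HMGB1, adjusted p = 0.0166) in VM sets with the library that has no set label.

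Libraries of different groups that shared a set label were compared by their deviations from the group means. Of 15 pairs, 5 correlated by more than 0.1 (range −0.29 to 0.30). Such correlations cannot show whether the sets were paired by design, which the labels do not state. When the set label entered the fit as replicate block, with the library that has no set label left out, members called went to 0 for HMGA2 higher with 4OHT (log2 fold change 0.29) and to 0 lower in the knockdown (LMNA −0.38, HMGA1 −0.40), EMD turned from −0.066 to 0.051, and HMGA1 lost its call against DMSO_siNT (−0.30).

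Leaving out 1 library gave 0 to 3 members lower in the knockdown and 0 to 1 between siNT 2 and siNT 4 in 4OHT cells, and moved LBR in the knockdown between −0.0017 and 0.13. The count of 3 came without DMSO_siNT 4-2V, where 12.9% of all genes were called lower against 5.65% with it. Other signs that turned belonged to differences that were not called: HMGB2 in the knockdown in VM sets alone (0.030) and with the library that has no set label (0.00087), with siNT 2 alone HMGA1 with 4OHT (−0.093), LBR (−0.12) and EMD (0.014) in the knockdown, with siNT 4 alone LMNB2 (0.26) and EMD (0.078) with 4OHT, and EMD in the knockdown with siSMARCA4_4 alone (0.030).

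The count ratios kept their direction. In VM sets alone the knockdown differences were 1.06 (LMNB1/LMNA) and −0.33 (HMGB2/HMGB1), with exact permutation p adjusted to 0.0714. With siRNA number 2 alone the differences were −3.53 and 1.12 for LMNB1/LMNA and −2.66 and −0.58 for HMGB2/HMGB1, and with number 4 alone −1.87, 0.80, −2.64 and −0.44 (4OHT, then knockdown). With 3 libraries against 3 these tests cannot pass the threshold.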
